A study of Mus musculus with 10 samples.

Results

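The lower incisor of the adult mouse that kept its nerve was described here from 5 arrays, those titled Control Incisor Dental Mesenchyme 1 to 5, out of 10 arrays in the series. Each array holds total RNA from the lower incisor dental mesenchyme of a wild-type C57BL/6J mouse at postnatal day 60. Every one of these mice had lost the inferior alveolar nerve on the opposite side of the jaw 2 weeks earlier, so the tissue is the contralateral side of an operated animal and no tooth of an unoperated mouse enters. Per the design text both incisors of 5 mice were used, and the other 5 arrays, from the denervated incisors, were not compared here. The sex is recorded as not determined. All 18193 genes that a probe set names by itself were measured, each by whichever of its probe sets averaged highest on these 5 arrays. The values below are therefore levels with their spread and no test between groups was made.

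Rodent incisors never stop growing. The mesenchyme inside, the dental pulp, is fed by stem cells around the nerve and vessels at the root end, and its outermost cells, the odontoblasts, secrete collagen and phosphoproteins that mineralise into dentin. On the other side of the forming tooth surface an epithelial layer, the ameloblasts, secretes enamel proteins.

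Values are log2 intensities, so that 1 unit is a doubling of signal, and every ± below is an SD over 5 arrays (n = 5). Probe sets bind their targets with different strength, so a rank orders signals and not transcript amounts. In this bulk tissue fewer cells of a type and less RNA per cell cannot be told apart. Control probe sets for a bacterial transcript that is not in the mouse averaged 0.77 ± 0.070, the SD being that of their mean on each array. A set of 38 genes of liver, testis, retina, pancreas and other distant organs had a median of 0.89. None of these 38 reached 4, the highest being the kidney transporter Slc12a1 at 3.20, and a mean of at least 4 is used below as the line for a clear signal. A low value does not show that a gene is off: the probe sets of Rps16, Rps27 and H3f3a, genes that cells of every tissue use, read 0.45, 1.14 and 1.11. The arrays resembled each other, with a Pearson r of 0.992 to 0.995 over all genes in the 10 pairs of arrays, where genes are not independent replicates. The 3' end of Actb exceeded its 5' end by 1.77 to 2.25 units and that of Gapdh by 0.46 to 0.70. The bioB hybridization control ran from 5.63 in array 4 to 6.27 in array 2.

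Over all genes, 7849 of 18193 (43.1%) had a mean of at least 4, 1283 (7.05%) a mean of at least 8, and 200 (1.1%) a mean of at least 10. A further 7441 genes (40.9%) lay below 2. The 43.1% is the share to set beside each count of list genes at 4 given below, and 7.05% that for counts at 8. On the linear scale the 30 highest genes held 9.58 ± 0.19% of the summed signal, the 100 highest 20.2 ± 0.34% and the 200 highest 28.7 ± 0.42%.

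The highest signal came from the mineralising matrix and from translation. Col1a1, the main chain of type I collagen, ranked 1 at 13.07 ± 0.051. It was followed by the enamel proteins Ambn (13.02 ± 0.051) and Amelx (12.87 ± 0.060), then by Sparc (12.79 ± 0.040), a collagen-binding glycoprotein of mineralising tissue, and Col1a2 (12.72 ± 0.065). Dspp, which encodes the main phosphoprotein of dentin, ranked 10. Of the 30 highest genes 14 encoded cytosolic ribosomal proteins, led by Rps29 at 12.68 ± 0.026 and Rpl13a at 12.28 ± 0.073. Another 2 came from the translation factor list. These were Eef1a1, an elongation factor, at 12.25 ± 0.058, and Tpt1 (12.56 ± 0.084), which is not itself an initiation or elongation factor. The cytoskeleton gave Tmsb10, an actin-binding peptide, at 12.10 ± 0.049 and Vim, the intermediate filament of mesenchymal cells, at 11.99 ± 0.11. Outside every class listed here stood Clu, a secreted chaperone, at 12.59 ± 0.087, Itm2b, a membrane protein, at 12.03 ± 0.043, Calb1, the calcium-binding protein of ameloblasts, at 11.71 ± 0.089, Gja1, the gap junction protein connexin 43, at 11.71 ± 0.12, and Serpinf1, a secreted inhibitor of vessel growth, at 11.61 ± 0.015. Neighbours in this order were mostly not separable: 23 of the 29 adjacent pairs lay closer than the larger SD of the pair. Col1a1 ranked 1 on 5 of 5 arrays and Ambn ranked 2 on each of them, whereas Dspp moved between ranks 9 and 14.

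**Figure D1:**
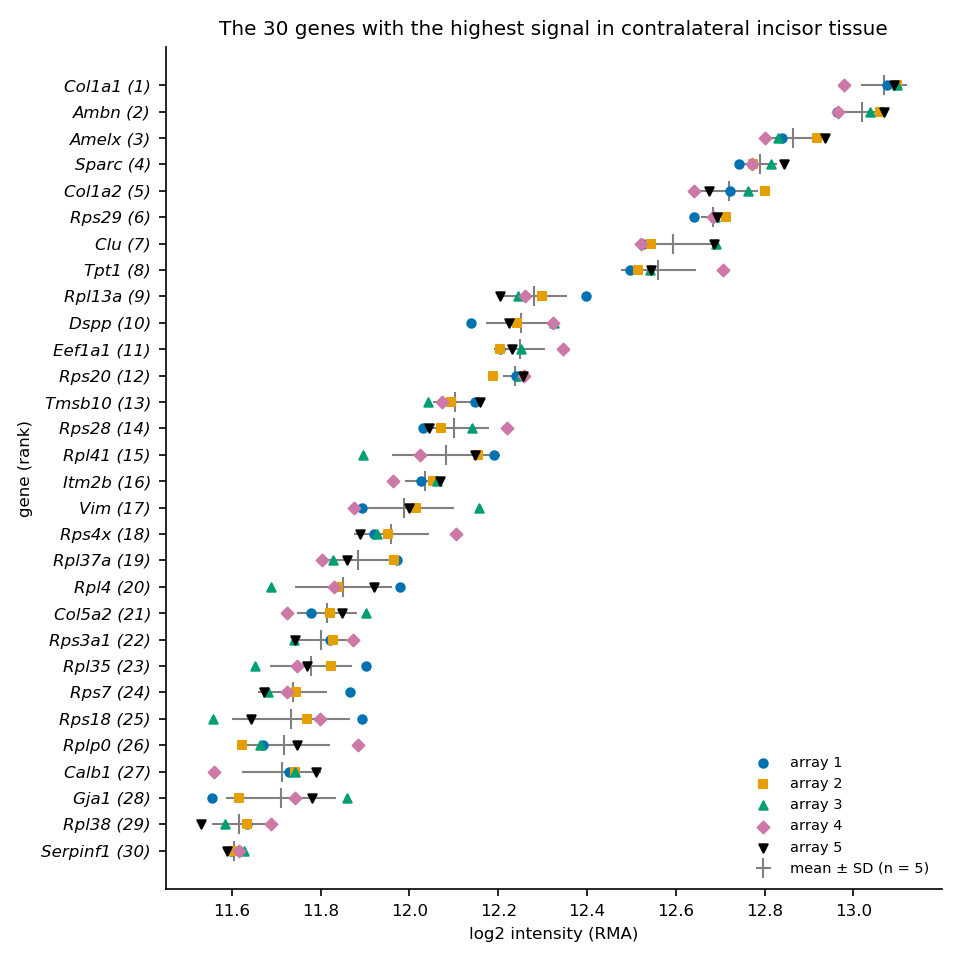
The 30 genes with the highest mean log2 intensity (x axis, RMA), 1 point per array and a grey mean with SD over 5 arrays, with the rank in brackets. Col1a1 at 13.07 and Ambn at 13.02 lead. Below rank 8 the spreads of neighbouring genes mostly overlap, but not those of Rps20 (lowest array 12.19) and Tmsb10 (highest array 12.16).

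The dentin genes were near the top and varied little. Dspp read 12.14, 12.24, 12.33, 12.32 and 12.23 on arrays 1 to 5, a mean of 12.25 ± 0.078. Dmp1, which encodes a phosphoprotein that nucleates mineral and signals in odontoblasts and osteocytes, read 11.21, 11.53, 11.25, 11.41 and 11.24 and ranked 49. Col1a1 read 13.08, 13.10, 13.10, 12.98 and 13.09. Array 4 was the lowest for Col1a1 and array 1 for both phosphoproteins, with ranges of 0.121 for Col1a1, 0.188 for Dspp and 0.321 for Dmp1. Phex, an endopeptidase that acts on phosphoproteins of this family, stood between Dspp and Dmp1 at 11.60 ± 0.12. Below Dmp1 lay the Wnt inhibitor Wif1 at 10.51 ± 0.097 and the phosphatase Alpl, which frees phosphate for mineral, at 9.89 ± 0.15. In all, 17 of 18 measured odontoblast markers reached 4 and 10 reached 8, with a median of 8.24 against 3.12 over all genes. The exception was Mepe, a phosphoprotein of osteocytes, at 0.89 ± 0.22. Within the phosphoprotein family Ibsp, the bone sialoprotein, stood at 7.15 ± 0.58, between Dmp1 and Mepe, and was highest on array 1 at 7.96 and lowest on array 2 at 6.59.

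Enamel genes ranked beside dentin genes in tissue labelled as mesenchyme. Ambn, which encodes ameloblastin, the adhesive enamel matrix protein, read 12.96, 13.06, 13.04, 12.97 and 13.07 on arrays 1 to 5. Amelx, which encodes amelogenin, the bulk protein of young enamel, read 12.84, 12.92, 12.83, 12.80 and 12.94. Both were highest on array 5 and next highest on array 2. Mmp20, the protease that processes these proteins during secretion, stood at 10.80 ± 0.17, and Enam, which encodes enamelin, at 9.60 ± 0.20, and both were again highest on arrays 2 and 5. Of the 13 measured secretory ameloblast markers 11 reached 4 and 7 reached 8, with a median of 9.27, the highest of the 27 marker lists for cells and tissues. This list shares Dspp with the odontoblast list. The lowest members were Fam83h at 3.20 ± 0.18 and Tuft1 at 3.49 ± 0.21. Genes of the later, maturing ameloblast were lower: 8 of 14 reached 4, against 43.1% of all genes, with a median of 4.65. The highest of them, the ferritin chain Fth1 (11.24 ± 0.094) and Alpl, are used by many cell types. Klk4, the protease of maturing enamel, was at 5.21 ± 0.59, and the ion transporters Slc24a4 and Slc26a4 were at 1.06 ± 0.080 and 0.97 ± 0.40.

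The bases just before the start sites of these genes are shown because Ambn, Amelx and Dmp1 are among the highest signals of the tissue and their promoters can be set beside that of a ribosomal protein gene of like signal. Each line gives the 60 bases before the annotated start, 5′ to 3′ on the gene's own strand, from RefSeq's GRCm38.p6, and capitals mark TATAAA and CCAAT or its reverse complement ATTGG. The windows are chr5:88455931-88455990 on the plus strand for Ambn, chrX:169187210-169187269 on the minus strand for Amelx, chr5:104202557-104202616 on the plus strand for 1 of the 2 annotated starts of Dmp1, and chr7:45128746-45128805 on the minus strand for Rpl13a.
Ambn: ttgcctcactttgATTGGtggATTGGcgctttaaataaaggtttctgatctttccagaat
Amelx: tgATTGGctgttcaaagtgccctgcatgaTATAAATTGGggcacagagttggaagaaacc
Dmp1: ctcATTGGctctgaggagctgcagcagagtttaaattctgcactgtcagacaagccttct
Rpl13a: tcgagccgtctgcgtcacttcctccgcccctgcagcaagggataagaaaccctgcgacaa

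The Ambn window holds ATTGG with its first base at -47 and at -39 from the start. The Amelx window holds it at -58 and at -26, the latter overlapping TATAAA at -31, and the Dmp1 window holds it at -57. The other annotated start of Dmp1 and the start of Rpl13a had neither motif in their 60 bases. Over the last 100 bases before the start and on both strands, CCAAT was found in 5 of 7 promoters of enamel genes. It was found in 18.9% of all 32851 promoters and in 18.4% of the 49 promoters of ribosomal protein genes. It was not particular to enamel genes: 3 of 4 promoters of phosphoprotein family genes held it. So did 27% of the 196 promoters of genes with a level of at least 10. TATAAA on the sense strand, starting between -45 and -20, was found in 4.59% of the 196 promoters of genes with a level of at least 10, in 1.4% of those at 8 to 10, in 0.747% of those at 4 to 8, in 3.5% of those below 4, and in 2.14% of all promoters. The share did not follow the level: it was higher at both ends than between. The 4.59% rests on 9 promoters, and the 196 promoters belong to 154 genes. A match is a string of letters and not a measured site. Promoters of Col1a1, Dspp and Shh were not used here.

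General epithelial genes were also clear. Shh, which encodes the hedgehog ligand made by the enamel epithelium of the incisor, read 10.64, 10.89, 10.84, 10.71 and 10.96 on arrays 1 to 5 and ranked 93, by 1 of its 2 probe sets, the other having a mean of 2.89. Array 1 was the lowest and array 5 the highest. Perp, a protein of desmosomes, stood at 10.11 ± 0.16, Cdh1, which encodes E-cadherin, at 9.26 ± 0.14, and Dsp, which encodes desmoplakin, at 9.20 ± 0.19. The basal keratins Krt14 and Krt5 were both at 9.04, with SDs of 0.12 and 0.13. Of 24 measured dental epithelium genes 20 reached 4 and 10 reached 8, with a median of 7.10. In the stellate reticulum and stratum intermedium, the cells behind the ameloblasts, 9 of 12 genes reached 4. The highest in that list were Igfbp5 at 10.68 ± 0.039 and Alpl, which is also in the odontoblast list. Its members Cygb, Rhcg and Lgr5 were at 3.08, 0.785 and 0.686. Keratinocyte genes of oral mucosa and skin were near the reference: 1 of 10 reached 4, Krt10 at 4.67 ± 0.21, and Krt13 and Krt4, keratins of oral lining, read 0.63 and 0.74. Measured by these markers the arrays hold epithelial as well as mesenchymal RNA, and the sample is called incisor tissue below.

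**Figure D2:**
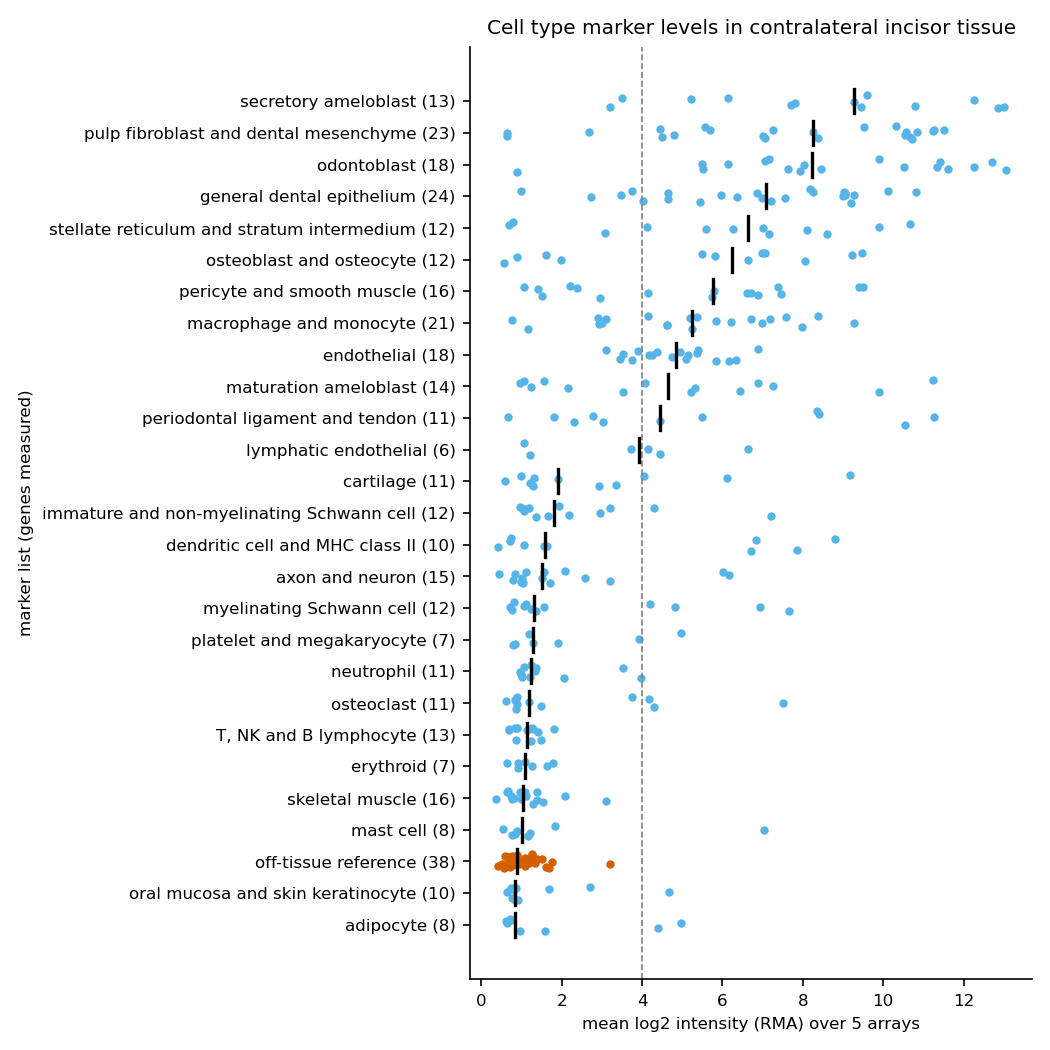
Mean log2 intensity over 5 arrays (x axis, RMA) of each measured gene in 27 lists of cell type and tissue markers, with the number of genes in brackets, the list median as a black bar, and a dashed line at 4. Secretory ameloblast (9.27), pulp (8.25) and odontoblast (8.24) lists have the highest medians, and the reference genes of distant organs, in orange, lie below 4.

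The mesenchyme named in the label was present throughout. Fmod, the marker fibromodulin, a small proteoglycan that controls collagen fibril width, read 11.52, 11.12, 11.49, 11.20 and 11.04 on arrays 1 to 5 and ranked 52. It was high on arrays 1 and 3 and lower on the others, and its 6 probe sets had means down to 8.20. Of 23 pulp and dental mesenchyme genes 20 reached 4 and 12 reached 8, with a median of 8.25. The highest were Col3a1, the collagen of loose connective tissue, at 11.52 ± 0.086, Fmod, Lum, another proteoglycan of collagen fibrils, at 11.23 ± 0.095, and Ptn, a secreted growth factor, at 10.84 ± 0.20. Among factors that set tooth position in the jaw, Msx1 (9.51 ± 0.17), Dlx2 (8.37 ± 0.17) and Hand2 (8.70 ± 0.13) were high. Barx1, a factor of molar mesenchyme, read 0.66, 0.54, 0.69, 0.68 and 0.61, the lowest of 37 measured transcription factors of dental mesenchyme and skeleton. In that list 30 of 37 reached 4, led by Sox4 at 10.24 ± 0.12 and Sp6, an epithelial factor of the tooth, at 9.52 ± 0.17. Of 20 Hox genes, which are silent in the jaw, 0 reached 4 and the highest was Hoxa5 at 2.14. Among genes used as mesenchymal stem cell markers 21 of 22 reached 4 but only 3 reached 8, namely Pdgfrb (9.40 ± 0.17), Cd44 (9.19 ± 0.16) and Pdgfra (9.06 ± 0.081), and Mcam was at 2.94 ± 0.17.

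A few collagen genes gave very high signals. Of 42 measured collagen genes 29 reached 4, 13 reached 8 and 5 reached 10, these being Col1a1, Col1a2, Col5a2 (11.81 ± 0.068), Col3a1 and Col11a1 (10.71 ± 0.26). Col5a2 and Col11a1 encode chains of the minor fibrillar collagens that start type I fibrils. Col10a1, the collagen of hypertrophic cartilage, was at 0.57 ± 0.053, and Col2a1, the main collagen of cartilage, at 2.93 ± 0.16. The collagen class held 1.97 ± 0.073% of the summed linear signal with 0.231% of the genes. Small leucine-rich proteoglycans added Bgn (11.26 ± 0.11) and Dcn (10.73 ± 0.15), and 8 of 12 reached 4. Of the matrix glycoproteins 28 of 35 reached 4, with Tnc, tenascin C, at 10.56 ± 0.079 and Postn, periostin, at 10.54 ± 0.18, while Mfap5 was at 0.67 ± 0.13. The machinery that folds and exports collagen gave a clear signal throughout: 38 of 38 genes reached 4 and 25 reached 8, with a median of 9.08. It was led by Serpinh1, the collagen chaperone, at 11.43 ± 0.17, the cross-linking enzyme Lox at 11.07 ± 0.12 and Pcolce, which speeds procollagen cleavage, at 10.98 ± 0.22, and the lowest was Plod3 at 4.96 ± 0.078.

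Among genes that every cell uses, 43 of 47 cytosolic ribosomal protein genes reached 4 and 35 reached 10, with a median of 11.08. They held 6.91 ± 0.16% of the summed linear signal with 0.258% of the genes. All 15 genes of the translation factor list, which counts Tpt1, reached 8, with a median of 10.29. Oxidative phosphorylation genes had a median of 8.30, with 75 of 87 at 4 or above and Cox6a1, a subunit of cytochrome oxidase, highest at 11.57 ± 0.028, and they held 2.73 ± 0.059% of the signal. The members below 4 included forms for muscle and testis, Cox7b2, Cox6a2 and Cox8b, at 0.67, 1.04 and 1.23, and also the general subunits Ndufb4, Ndufb1 and Cox7c, at 0.69, 1.43 and 2.03. Cytoskeletal genes reached 4 in 24 of 25 cases with a median of 9.70.

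Vessels, macrophages and nerve gave smaller signals. Of 18 endothelial genes 13 reached 4 and 0 reached 8, with a median of 4.84, from Plvap, a protein of fenestrated vessels, at 6.87 ± 0.22 to Robo4 at 3.11 ± 0.24. Pericyte and smooth muscle genes reached 4 in 10 of 16 cases, with Rgs5, a pericyte regulator of G proteins, at 9.51 ± 0.13, and the mature smooth muscle genes Myh11 and Cnn1 at 2.38 ± 0.31 and 2.20 ± 0.19. Macrophage genes reached 4 in 15 of 21 cases with a median of 5.23. Lyz1 (9.27 ± 0.090) and Lyz2 (7.97 ± 0.17) encode lysozymes, close copies whose probe sets may share signal, Csf1r (8.39 ± 0.15) encodes the receptor that macrophages need to live, and C1qb (7.59 ± 0.23) encodes a complement subunit. Itgam, an integrin of myeloid cells, and Ccr2, a chemokine receptor of blood monocytes, read 0.77 ± 0.20 and 1.17 ± 0.29. The class II antigen presentation genes H2-Aa, Cd74, H2-Ab1 and H2-Eb1 lay between 6.72 and 8.81, and the dendritic cell genes Xcr1, Itgax and Flt3 between 0.41 and 1.06.

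Most nerve transcripts were near the reference. The cell bodies of pulp nerves lie outside the tooth, in ganglia. Of 15 axon and neuron genes 2 reached 4, Tac1, the gene of substance P, at 6.16 ± 1.05 and Tubb3, a tubulin, at 6.01 ± 0.35, and the neurofilament Nefl was at 0.44 ± 0.083. Tac1 read 6.73, 4.95, 6.49, 7.44 and 5.20 on arrays 1 to 5, low on arrays 2 and 5. Of 12 genes of myelinating Schwann cells 4 reached 4, Pmp22 (7.65 ± 0.22), Cnp (6.93 ± 0.18), Ncmap (4.82 ± 0.55) and Mbp (4.20 ± 0.16), the first of which connective tissue cells also use. Of 12 immature or non-myelinating Schwann genes 2 reached 4, Ncam1 (7.20 ± 0.26) and Ngfr (4.29 ± 0.35), and Sox10, the factor of the Schwann lineage, was at 1.66 ± 0.054. The median of each of these 3 lists was below 2.

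Blood, muscle, mast and fat cells had few or no markers at 4. In the mean over 5 arrays none of 13 lymphocyte, 11 neutrophil, 7 erythroid or 16 skeletal muscle genes reached it. The highest of each were Jchain at 1.80, S100a8 at 3.97, Slc4a1 at 1.78 and Eno3 at 3.11. On arrays 1 and 5 alone S100a8 read 4.85 and 4.63 and S100a9 4.31 and 4.45. The immunoglobulin gene Igha, which is not in the lymphocyte list, had a mean of 4.85. The globin gene in the erythroid list was Hba-a1, at 0.91, and probe sets that name several genes were not used. Among mast cell genes 1 of 8 reached 4, Kit at 7.04 ± 0.14, which other cells use, and the mast cell proteases Cpa3, Mcpt4 and Cma1 lay at 0.88, 0.83 and 0.76. Adipocyte genes reached 4 in 2 of 8 cases, Lpl at 4.96 and Fabp4 at 4.40, with Adipoq at 0.73. Pf4 was the member of 7 platelet genes to reach 4, at 4.96. Among skeletal tissues osteoclast genes reached it in 3 of 11 cases, with Ctsk, the collagen-degrading cathepsin K, at 7.51 ± 0.13 and Calcr, the calcitonin receptor, at 0.60 ± 0.098. Bone genes reached it in 8 of 12, with Ptprz1, a membrane phosphatase, at 9.48 ± 0.37, and the osteocyte genes Sost and Fgf23 at 1.62 and 0.56. Cartilage genes reached it in 3 of 11 and periodontal or tendon genes in 6 of 11, against 43.1% of all genes. Scx and Tnmd, which mark tendon, were at 2.30 and 2.78.

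Signalling genes were read by role. In the hedgehog pathway 13 of 19 genes reached 4: the ligand Shh, its receptor Ptch1 (9.83 ± 0.13), the coreceptor Gas1 (9.11 ± 0.076) and the transducer Smo (8.05 ± 0.025) were at 8 or above, and the effectors Gli3, Gli2 and Gli1 lay at 7.20, 6.19 and 5.69. The other ligands Dhh and Ihh were at 1.99 and 0.70. In the Wnt pathway 23 of 40 reached 4, against 43.1% of all genes. The highest were Ctnnb1, which encodes beta-catenin, at 11.28 ± 0.044, and the inhibitors Wif1, Sostdc1 (8.52 ± 0.091) and Apcdd1 (8.49 ± 0.22), and among ligands Wnt5a (8.22), Wnt6 (7.64) and Wnt10a (7.51) were the highest, against Wnt1 at 0.42. In the BMP and TGF-beta pathway 28 of 35 reached 4 and 17 reached 8. They were led by Fstl1, an extracellular modulator, at 11.06 ± 0.065, Ltbp3, which holds latent TGF-beta in the matrix, at 10.55 ± 0.11, the decoy receptor Bambi at 10.11 ± 0.10 and the target Id2 at 9.82 ± 0.038, and the BMP inhibitor Nog was at 1.08 ± 0.12. FGF receptors were mostly above FGF ligands. Fgfr1 stood at 10.41 ± 0.084, Fgfr3 at 7.94 ± 0.36 and Fgfr2 at 6.20. The measured ligands ran from Fgf1 at 4.20 down to Fgf2 at 0.83. The exception was the receptor Fgfr4 at 1.075, below several of the ligands. Axon guidance and neurotrophic genes reached 4 in 17 of 26 cases, with Sema3e, a repelling semaphorin, at 8.31 ± 0.14 and Robo1, a Slit receptor, at 8.27 ± 0.12, and Gdnf, Bdnf and Artn at 0.89, 1.00 and 0.65. Among channels and mineral transporters 12 of 21 reached 4, against 43.1% of all genes. The highest were the cation channel Trpm7 at 10.84 ± 0.13, the calcium pump Atp2b1 at 10.07 ± 0.080 and the phosphate transporter Slc20a2 at 9.98 ± 0.15. The channels Trpm8, Trpc5 and Trpv1, which sense cold and heat, read 1.14, 0.76 and 0.62.

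Spread between the 5 arrays was small for most genes and fell with level. The median SD of the 7849 genes with a mean of at least 4 was 0.148 log2 units, 0.181 for genes at 4 to 6 and 0.0942 for genes at 10 or above. Of these genes 377 (4.8%) had a range from lowest to highest array of at least 1, and 39 (0.497%) of at least 2. Array 5 was the lowest array for 16 and the highest for 11 of the 39, against 26.3% and 17% of the 7849 genes, and 21 genes had such a range when array 5 was left out. The 5 genes with the smallest SD at a level of at least 8 were Jtb (8.59 ± 0.0090), a transmembrane protein, the long non-coding RNA Tug1 (8.64 ± 0.014), Serpinf1, Zfp445 (8.17 ± 0.016), a zinc finger factor, and Serf2 (9.75 ± 0.019). The 7 markers Col1a1, Ambn, Amelx, Dspp, Shh, Dmp1 and Fmod had SDs from 0.051 to 0.22.

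**Figure D3:**
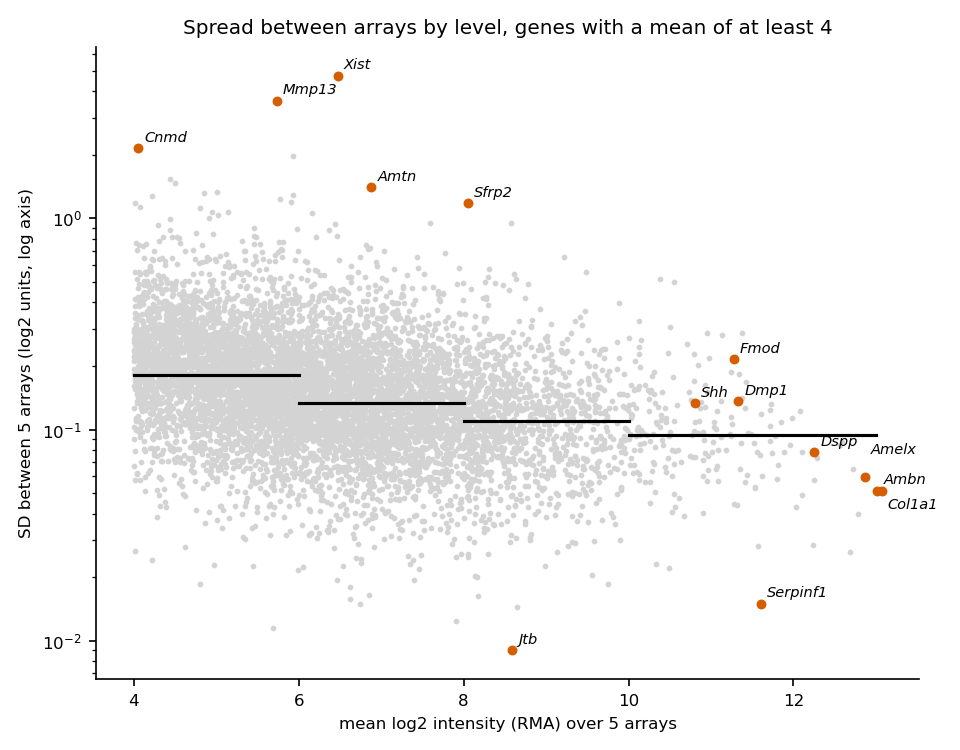
SD between 5 arrays (y axis, log2 units on a log axis) against mean log2 intensity (x axis) for the 7849 genes with a mean of at least 4, with black lines at the median SD of each level range and named genes in orange. Dspp, Amelx, Ambn and Col1a1 lie below the median line of 0.0942, and Xist and Mmp13, with SDs of 4.74 and 3.61, lie above all other genes, followed by Cnmd at 2.16.

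The most variable genes split the arrays in different ways. Xist, the RNA that silences the second X chromosome in females, read 9.71, 1.27, 10, 10.08 and 1.31 on arrays 1 to 5. The Y-linked genes Eif2s3y (1.10, 6.87, 0.77, 0.90 and 6.00), Uty and Kdm5d were high on arrays 2 and 5 and near the reference on arrays 1, 3 and 4. Kdm6a, an X-linked gene that escapes silencing, was 5.90 to 6.01 on arrays 2 and 5 and 6.60 to 6.77 on the others. By these genes arrays 1, 3 and 4 read as female and arrays 2 and 5 as male. Tac1 and Cnmd were lowest, and Ambn, Amelx, Mmp20 and Enam highest, on arrays 2 and 5. The part of sex in their levels was not tested.

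Mmp13, the collagenase of bone, cartilage and remodelled matrix, read 9.98, 3.58, 3.04, 2.72 and 9.35 on arrays 1 to 5. Its rank ran from 210 on the array where it was highest to 9675 on the lowest. Sfrp2, a secreted Wnt inhibitor, was highest on the same arrays at 9.18 and 9.33, against 7.28, 6.61 and 7.84 on arrays 2, 3 and 4. So were Mmp9, a gelatinase of osteoclasts and other cells, at 5.05 on both against 3.47 to 4.46, and Pdpn, a membrane glycoprotein of osteocytes and lymphatic vessels, at 7.17 on both against 6.15 to 6.36. Mmp9 and Pdpn were picked for their values. The bone list stood 0.22 above its own mean on array 1 and 0.047 above on array 5, and the osteoclast list 0.27 and 0.098 above, and their part in the Mmp13 levels was not tested.

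Cartilage-related signal also differed. Cnmd, which encodes chondromodulin, a cartilage inhibitor of vessel growth, read 4.92, 2.26, 6.14, 5.68 and 1.28, low on arrays 2 and 5. Col9a2, a collagen chain of cartilage, was lowest on array 5 at 5.13, against 6.10 to 6.56 on the others. The defining cartilage genes Acan and Matn1 were at 1.21 and 0.98 in the mean.

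Amtn and Odam, genes of late enamel, were highest on array 5, and Klk4 was highest on array 2. Amtn, which encodes amelotin of maturing enamel, read 5.84, 7.23, 5.22, 7.28 and 8.84, and Odam, its partner in the layer that attaches ameloblasts, read 3.67, 4.69, 2.97, 3.32 and 5.73. Both were lowest on array 3 and highest on array 5, with a range of 3.62 and 2.76, while Amelx and Ambn moved by 0.137 and 0.106 over the same arrays. Klk4 read 4.85, 5.97, 4.42, 5.45 and 5.37, lowest, like them, on array 3. Krt15, a keratin of epithelial stem cells chosen after its values were seen, was at 5.38 on array 5 and 3.55 to 3.79 on the others. The maturation list stood 0.20 above its mean on array 5 and the general epithelium list 0.12 above, and on array 2 they stood 0.10 and 0.17 above. The part of epithelial RNA in these differences was not tested.

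The other genes among the 20 most variable were of both kinds, set apart by 1 array or split between several. Pdxdc1, a decarboxylase-like gene, read 2.39 on array 5 and 6.70 to 6.94 on the others. Tac2, the neurokinin B gene, was 3.83 on array 5 and 6.16 to 6.77 elsewhere, and Tmem87a and Cuedc1 were likewise lowest there at 3.68 and 3.29. Ifi44l, an interferon-induced gene, was lowest on array 4 at 2.18, and Metap1d was 3.17 there against 5.33 to 5.62. Lyve1, a hyaluronan receptor of lymphatic vessels and some macrophages, was high on arrays 2 and 4 at 5.96 and 6.18, against 2.94 to 3.95, and Igha, the heavy chain of immunoglobulin A, was high on arrays 4 and 5 at 6.34 and 6.02.

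**Figure D4:**
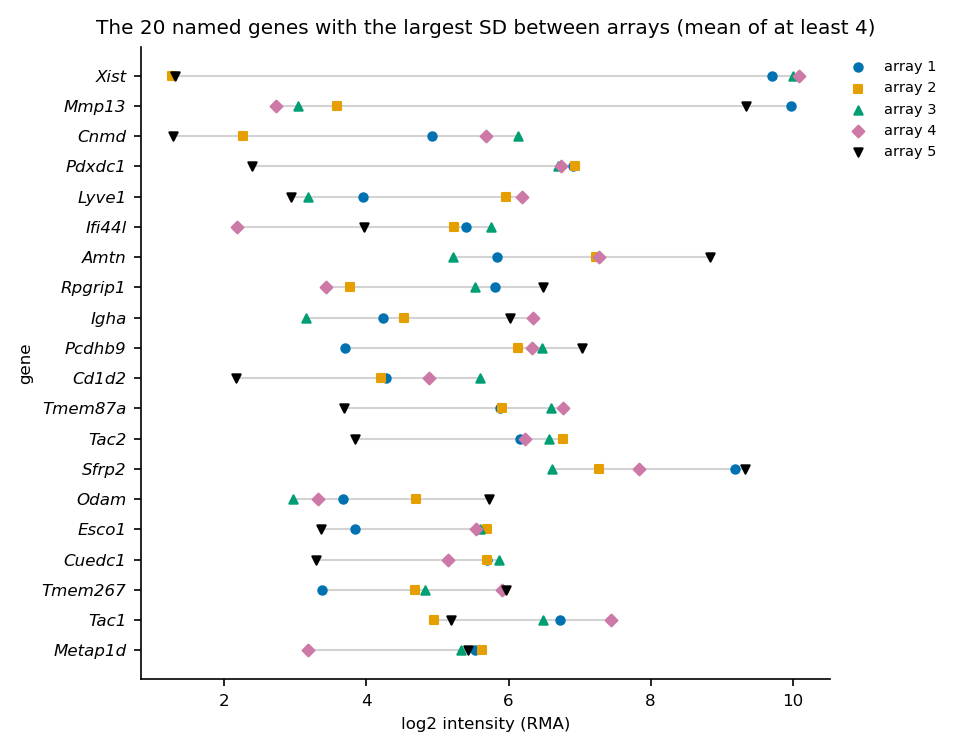
Log2 intensity (x axis, RMA) on each of the 5 arrays for the 20 genes with the largest SD among those with a mean of at least 4, clone names passed over. Xist and Mmp13 each divide the arrays into a high and a low set, and the sets differ: arrays 1, 3 and 4 are high for Xist and arrays 1 and 5 for Mmp13.

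Gene lists were then followed across arrays, as the median deviation of a list's genes (mean of at least 4) from their own 5-array means. Of 41 lists with at least 3 such genes, 7 had a range of at least 0.5 between arrays. These were cartilage, class II presentation, lymphatic vessel, cell cycle, heat shock, osteoclast and myelin genes. With array 1 left out 4 lists had such a range, and with array 3 left out 3 did, and 5 of the 7 rest on 3 or 4 genes. The lists that define the tissue were steadier, with a range of 0.147 for odontoblast, 0.0967 for pulp and 0.172 for secretory ameloblast genes.

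Proliferation genes were low on array 3. The 19 cell cycle genes deviated by 0.23, 0.19, -0.62, 0.19 and 0.039 on arrays 1 to 5, and array 3 was the lowest for 18 of the 19, against 26.7% of all genes tested. Top2a, the topoisomerase of dividing cells, read 7.10, 6.97, 6.08, 6.95 and 6.82, and Mki67, the proliferation antigen, read 6.49, 6.66, 5.79, 6.66 and 6.45. The exception was Mcm6, part of the replication helicase, which was lowest on array 5 at 5.25 and next lowest on array 3 at 5.71. Array 3 was also the lowest for 25 of 43 ribosomal protein genes, by 0.080 in the median. The bioB hybridization control on array 3 was 5.96, between those of arrays 4 and 1.

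Chaperone genes were high on array 4. The 11 heat shock genes deviated by -0.087, -0.19, -0.16, 0.38 and 0.065, and array 4 was the highest for 10 of 11, against 23.2% of all genes tested. Hsph1, a large chaperone of the Hsp110 family, read 6.45, 6.09, 6.65, 7.95 and 7.04, and Hspa1b, an inducible Hsp70 with a near-identical copy, read 6.64, 7.19, 7.17, 8.32 and 7.85. Cirbp, an RNA-binding protein induced by cold and chosen after its values were seen, had its lowest value on the same array, 4.18 against 5.04 to 6.53. Array 4 also had the lowest hybridization controls, with bioB at 5.63, and the smallest Actb difference between the 3' and 5' ends, 1.77. The part of either was not tested.

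Antigen presentation genes moved together, and macrophage and epithelial lists moved less. The class II genes H2-Aa, Cd74, H2-Ab1 and H2-Eb1 were all highest on array 4 and all lowest on array 5, where 23.2% and 26.3% of all genes tested had their highest and lowest array. H2-Eb1 read 6.90, 6.71, 6.66, 7.43 and 5.88. The macrophage list differed by 0.251 between arrays, from -0.17 on array 5 to 0.085 on array 2. The general epithelium list was highest on array 2, at 0.17, and lowest on array 4, at -0.19, with array 4 the lowest for 10 of 20 genes, against 22.5%. The enamel matrix list ran from -0.21 on array 1 to 0.20 on array 2.

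**Figure D5:**
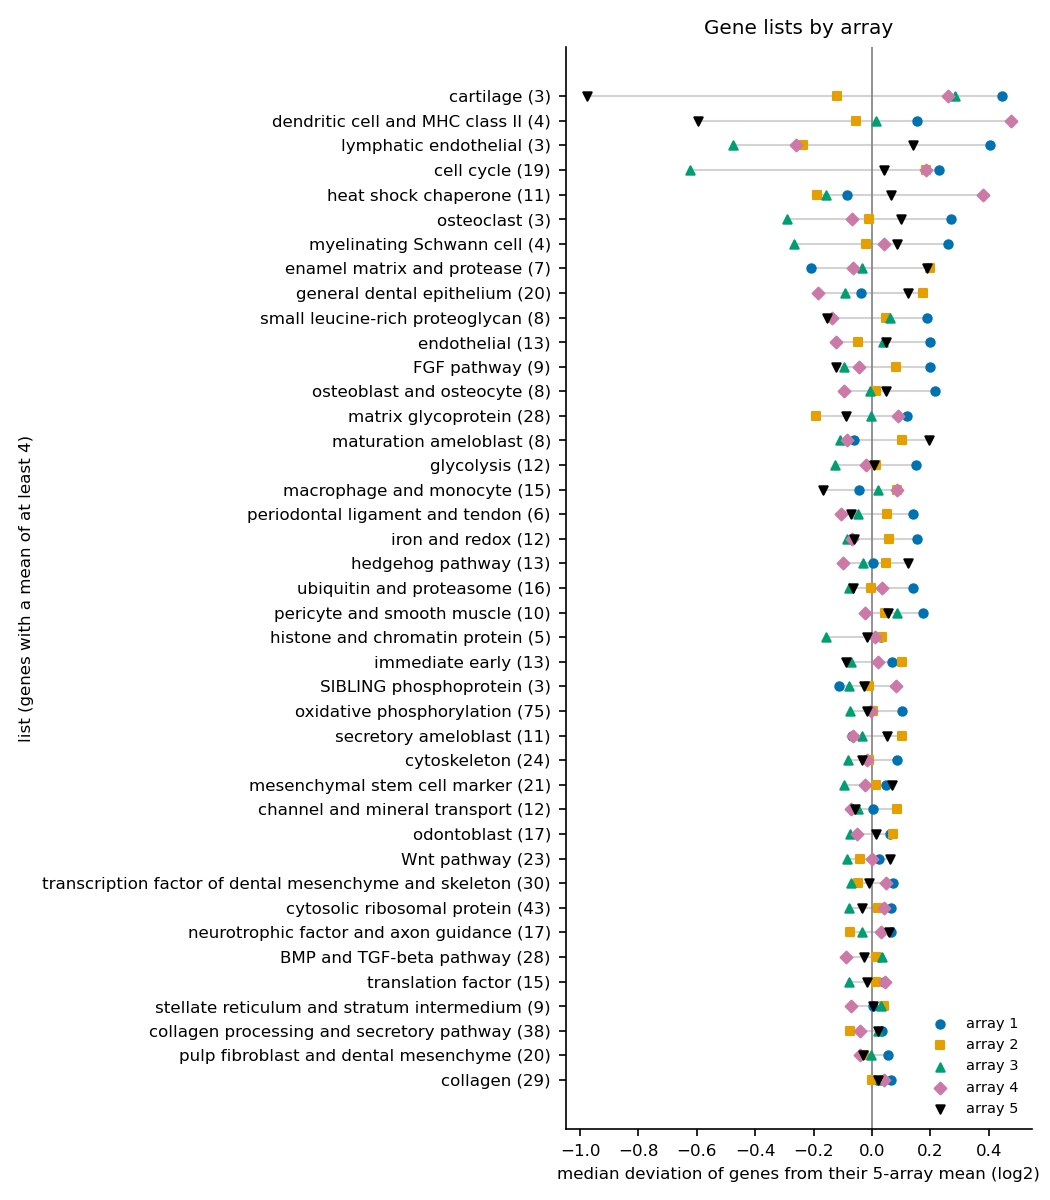
Median deviation of a list's genes from their own 5-array means (x axis, log2 units) on each array, for 41 lists ordered by range, with the number of genes in brackets. Cell cycle genes lie at -0.62 on array 3 and heat shock genes at 0.38 on array 4, and collagen, pulp and odontoblast lists keep within 0.147.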

How the data were processed

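The authors deposited 1 log2 intensity per probe set and array from an Affymetrix mouse array. RMA, which corrects background, normalizes arrays and summarizes probes, is named without a version, per the submitters' processing notes. Array medians near 1.5 point to an unstated variant, on which low values in particular depend. No further normalization was applied, and no detection calls were used. Of 45101 probe sets 64 were controls, 34945 named 1 gene symbol in the platform annotation, 932 several and 9160 none; only the first kind names a gene, and 34741 matched a RefSeq gene. Python 3.11.15, pandas 2.3.3 and numpy 2.4.6 gave means, SDs, ranks and ranges over the 5 arrays. Some of the calculations were tested on simulated data, but not all of them. The number of arrays limits the precision, and biological and technical spread were not separated.

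Members, markers and the 54 gene lists were chosen with earlier results of these data known. Named genes are the 7 markers, the 30 highest, the 4 highest and the lowest of each list, the 20 with the largest SD at a mean of at least 4 and the 5 with the smallest at a mean of at least 8. Every other gene in the text is a list member or neighbour chosen after its values were seen. Alternatives covered the choice of probe set, normalization, level thresholds, filters and each array left out.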

Additional observations from a re-analysis of the deposited data

Results flagged for a closer look

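An array was set apart where its gap to the nearest other array was large for 5 values (Dixon's 95% limit), which chance gives in about 1 in 20 genes. It did so in 494 of 7849 genes (6.29%) with a mean of at least 4, in 31 of 284 named genes and in 2 of 41 lists. Of the 31 named genes 20 had a mean of at least 4. The named genes include the 20 picked for the largest SD, so their share cannot be set against 1 in 20 or 6.29%. Among the highest genes array 4 was low for Col1a1 (12.98), Calb1 (11.56) and Bgn (11.08) and high for Tpt1 (12.71), and array 2 was low for Rps20 (12.19). Array 4 was also low for the Wnt inhibitor Sostdc1 (8.36), the channel regulator Abcc9 (6.94) and the peptidase Metap1d (3.17). Array 3 was low for the cell cycle list (-0.62), the histone and chromatin list (-0.16), Top2a (6.08), Mcm4 (6.32), Ldha (7.97) and Mbp (3.92), and high for Sema3e (8.56). Array 5 was low for Pdxdc1 (2.39), Tac2 (3.83), Tmem87a (3.68) and Cuedc1 (3.29) and high for Apcdd1 (8.88). Array 1 was high for Ctsk (7.75) and low for Pcdhb9 (3.70).

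The remaining values belong to genes with means below 4. Array 2 was low for Fabp7 (1.78) and Camp (1.15) and high for Lor (2.21), Alas2 (2.02) and Slc26a4 (1.67). Array 3 was high for Prox1 (1.59), Mepe (1.27), Lgr5 (0.80) and Cd79a (0.79). Array 5 was high for Itga2b (2.01) and Tpsb2 (1.46).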

How the results depend on the processing

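Taking the mean of all probe sets of a gene in place of the highest left 14 of the 30 highest genes among the 30 highest, 80 genes at 10 or above (200 before), 497 at 8 or above (1283), 1 list with a median of at least 8 (12), 4 lists with a range of at least 0.5 (7) and 24 genes with a range of at least 2 (39). With no filter on low values 3 lists and 76 genes passed these range limits, and with a filter at 6 the gene count was 10. Leaving out 1 array gave 3 to 7 lists and 21 to 34 genes. No direction turned. Centring arrays on their median or quantile normalization left every count here within 1.5 times, and of 284 named gene levels 150 moved by over 1 SD with the mean of all probe sets, 35 of 274 without probe sets that can bind several genes and 0 with either scaling. No paired analysis was possible because only the contralateral arrays were described and no groups were compared. Levels of genes whose probe sets disagree are the least certain: of 999 genes at 8 or above with several probe sets, 612 have a probe set under 4.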

Other observations

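Immediate early genes, which rise within minutes of handling or stimulation, were mixed. Of 19 measured, 13 reached 4, led by Klf4 (9.07 ± 0.17), Egr3 (8.33 ± 0.13), Jund (7.86 ± 0.16) and Klf6 (7.07 ± 0.23), while Fos (2.59 ± 0.27), Atf3 (1.15 ± 0.17) and Fosb (0.69 ± 0.13) did not. The list differed by 0.195 between arrays. Genes against oxidative stress reached 4 in 12 of 12 cases, with Fth1 and Selenop (10.50 ± 0.094) highest and Mt2 lowest at 4.71 ± 0.36. Gpx3, a secreted peroxidase of that list, read 9.20, 9.41, 8.57, 6.999 and 8.69 on arrays 1 to 5, lowest on array 4. Proteasome genes reached 4 in 16 of 19 cases with a median of 8.19, and the immune subunits Psmb8, Psmb9 and Psmb10 lay at 4.29, 3.01 and 4.62. Glycolysis genes reached 4 in 12 of 13 cases, led by Aldoa at 9.80 ± 0.14. The circadian output gene Dbp, chosen after its values were seen, read 8.40, 8.55, 7.62, 7.13 and 6.24 on arrays 1 to 5.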
